A study of Mus musculus with 6 samples.

Results

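The genes described here encode 8 enzymes of branched-chain amino acid breakdown, Bcat1, Bcat2, Bckdha, Bckdhb, Dbt, Dld, Bckdk and Ivd. They were taken by symbol from a table of 21135 genes, after GENCODE M21 had been used to pair each Ensembl identifier with a symbol, and all 8 were found. They were chosen as a pathway with earlier results of these same libraries in view. The choice was thus selected on measured values, the log2 change of Bcat1 between the genotypes among them, and the difference between genotypes is given for the 8 genes as a description with no p-value. RNA was sequenced from DN3 thymocytes, a CD4-negative and CD8-negative stage of T-cell development in the thymus, of C57BL/6 mice. The 3 mutant libraries came from mice homozygous for mutations of GATA site 1 and GATA site 2 in NMe, a distal enhancer of Myc bound by Notch, and the 3 wild-type libraries from mice with an intact NMe. The age and sex of the mice, and whether each library came from a mouse of its own, are not stated in the labels, so that errors and p-values describe the spread between these libraries.

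Leucine, isoleucine and valine are broken down in steps that start with the removal of the amino group. A branched-chain aminotransferase passes that group to 2-oxoglutarate, which gives glutamate and a branched-chain keto acid, and the reaction is reversible. The cell has a cytosolic form of this enzyme, Bcat1, and a mitochondrial form, Bcat2. In mitochondria the keto acids are then committed to breakdown by the branched-chain keto acid dehydrogenase complex, whose activity is set by an inhibitory kinase. MYC is known to act on many genes of growth and metabolism, BCAT1 being one of those studied in human blood cancers.

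Recovered reads numbered 38591038 to 48329750 per mutant library and 42383923 to 51306934 per wild-type library. Myc, the gene that NMe regulates, had 5562, 4612 and 6165 normalised reads in mutant replicates 1 to 3, against 18041, 19223 and 20196 in wild-type replicates 1 to 3, so that its groups did not overlap. The DN3 markers Il2ra, Ptcra, Cd3e, Rag1, Rag2 and Dtx1 were all detected (4 of 6 called). Their summed level was 188016 to 221766 normalised reads in mutant and 124967 to 135718 in wild-type libraries. The called genes did not share a direction. Il2ra (log2 change 0.85), Cd3e (0.41) and Dtx1 (1.91) were higher in the mutant, and Rag1 (-0.58) was lower. Markers of gamma delta T cells (Sox13, Trdc and Tcrg-C1, 3 of 3 called) summed to 52598 to 87283 in mutant and 36442 to 43850 in wild-type libraries, and 5 immediate early genes (2 called) to 177342 to 319071 in mutant and 111025 to 245434 in wild-type libraries. The globin genes Hba-a1 and Hbb-bs summed to at most 20.8 normalised reads in mutant libraries and to 6253 in wild-type replicate 2. The part of these lists in the results was not tested. Pax5, Ms4a1, Ncr1, Foxn1 and Siglech, which define B, natural killer, epithelial and plasmacytoid cells, were not among the listed genes.

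Of the 17815 genes with a mean of at least 10 normalised reads, 18.8% differed between the genotypes in limma's moderated test (Benjamini-Hochberg adjusted p under 0.05), 7.94% higher and 10.9% lower in the mutant. With library totals made equal these were 1827 genes higher and 1647 lower, against 1414 and 1938 with the authors' scaling. The 8 enzyme genes all passed the filter on low values. Of these, 3 (Bcat1, Bcat2 and Dld) lay past the threshold on the lower side and 0 on the higher side, and since the genes were chosen with this contrast known, nothing is read from that share. The median log2 change was -0.28 over the 8 genes, and 0.03 over all tested genes. For 4 of the 8, Bcat1, Bcat2, Dld and Bckdk, the libraries of the genotypes did not overlap, all being lower in the mutant. Such groups were found for 38.3% of all tested genes, 20.3% lower in the mutant. Bcat1 alone among the 8 lay past the threshold with a log2 change of -1 or less, as did 2.5% of tested genes.

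Bcat1 (ENSMUSG00000030268), the cytosolic branched-chain aminotransferase, lies on chromosome 6 from 144993835 to 145076184 on the minus strand (GRCm38). It had 63.3, 86.0 and 103.7 normalised reads in mutant replicates 1 to 3, against 1071, 1342 and 1892 in wild-type replicates 1 to 3. Every mutant library was far below every wild-type library. These values stood for 60, 95 and 94 whole reads in the mutant libraries and for 1010, 1405 and 2126 in the wild-type libraries, so that counting error is larger in the mutant. The mean was 84.3 ± 20.2 in the mutant and 1435 ± 418 in the wild type (SD, n = 3 each), 17.01-fold lower in the mutant. The log2 change of -4.06 ± 0.25 (SE; 95% interval -4.62 to -3.50) was the 9th lowest of the 17815 tested genes. In bulk RNA, fewer cells that contain the transcript and less of it per cell cannot be told apart. Within a genotype Bcat1 was also the most variable of the 8 genes, with a coefficient of variation of 29.1% in the wild type, where Bckdhb followed at 24.5%.

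RefSeq (GRCm38.p6) gives Bcat1 a pair of start sites 27345 bases apart, and the reads of both were counted together in the deposited table. The 250 bases before each start are shown because Bcat1 is the member with by far the greatest difference, and the window before the upstream start of Bcat2 is set beside them. Capitals mark CG dinucleotides, and the sequences run 5′ to 3′ on the strand of the gene.
Bcat1, upstream start (chr6:145076158-145076407, minus strand): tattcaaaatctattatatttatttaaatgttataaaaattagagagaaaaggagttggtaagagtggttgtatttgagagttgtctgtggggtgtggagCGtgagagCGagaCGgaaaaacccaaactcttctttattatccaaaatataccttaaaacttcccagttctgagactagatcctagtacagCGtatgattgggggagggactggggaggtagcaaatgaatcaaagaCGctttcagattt
Bcat1, downstream start (chr6:145048813-145049062, minus strand): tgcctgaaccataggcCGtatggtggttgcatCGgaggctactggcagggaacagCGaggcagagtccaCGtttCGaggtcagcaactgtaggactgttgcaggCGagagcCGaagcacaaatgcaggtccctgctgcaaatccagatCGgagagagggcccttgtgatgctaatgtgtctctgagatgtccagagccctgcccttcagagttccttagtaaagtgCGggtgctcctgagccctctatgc
Bcat2, upstream start (chr7:45569903-45570152, plus strand): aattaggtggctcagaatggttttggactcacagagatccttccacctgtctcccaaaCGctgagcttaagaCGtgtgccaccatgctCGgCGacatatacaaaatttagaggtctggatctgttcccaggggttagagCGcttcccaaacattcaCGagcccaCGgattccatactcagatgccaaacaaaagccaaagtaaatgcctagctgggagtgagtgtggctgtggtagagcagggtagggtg
The upstream window of Bcat1 was poor in G and C (37.6%, with 5 CG dinucleotides), whereas its downstream window held 56.4% G and C and 9 CG dinucleotides. The Bcat2 window lay between them at 50.4% and 7, and the median over 32817 RefSeq promoter windows was 52.4% and 6. Neither the letters CACGTG, the E-box form bound by MYC with MAX, nor TGATGNAA, a core of the amino acid response element, occurred on either strand in the 10 windows found for 7 of the 8 genes. CACGTG was found in 6.02% and TGATGNAA in 3.45% of all windows of this length. With shares this low, absence from 10 windows says little, and bases outside the windows were not searched. Dbt had no entry.

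Bcat2 (ENSMUSG00000030826), the mitochondrial aminotransferase, lies on chromosome 7 from 45570153 to 45589711 on the plus strand. It had 2383, 2140 and 2302 normalised reads in the mutant libraries, against 3243, 3151 and 3071 in the wild-type libraries. The groups did not overlap, and each was tight, with a coefficient of variation of 5.43% in the mutant and 2.72% in the wild type. The mean of 2275 ± 123 in the mutant was 1.39-fold lower than that of 3155 ± 85.8 in the wild type (SD, n = 3 each), a log2 change of -0.47 ± 0.10 (SE; 95% interval -0.70 to -0.25). A noncoding gene on the other strand, 0610005C13Rik, shares 622 exon bases with Bcat2. The library kit did not record strand, but this neighbour averaged 28.6 ± 17.7 normalised reads in mutant and 35.1 ± 9.97 in wild-type libraries (SD, n = 3 each), far below Bcat2.

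**Figure D1:**
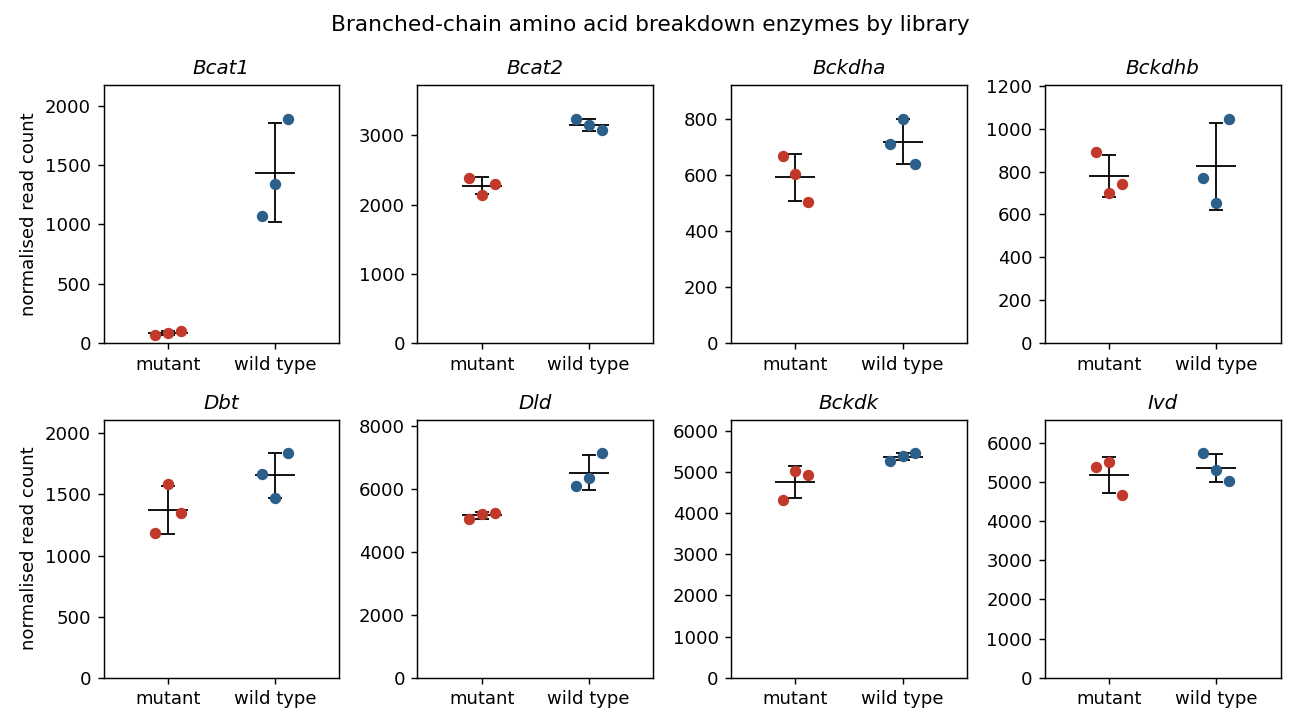
Normalised read counts (vertical axes, each from 0) of the 8 enzyme genes in 3 mutant libraries (left, red) and 3 wild-type libraries (right, blue); each point is a library, the long horizontal bar is the mean and the capped line its SD. Bcat1 lies at 63.3 to 103.7 in the mutant and at 1071 to 1892 in the wild type, while Bckdhb and Ivd overlap between the genotypes.

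The difference between the 2 aminotransferase genes was seen in every library. The log2 level of Bcat1 minus that of Bcat2 was -5.21, -4.62 and -4.46 in mutant replicates 1 to 3, against -1.597, -1.23 and -0.70 in wild-type replicates 1 to 3. The 2 sets of values did not overlap. These levels are log2(value + 1) of normalised reads, not divided by gene length, so that only the shift between genotypes is read. The mean difference of Bcat1 from Bcat2 was -4.76 ± 0.40 in the mutant and -1.18 ± 0.45 in the wild type (SD, n = 3 each), so that Bcat1 was 12.03-fold lower relative to Bcat2 in the mutant. Per kilobase of exon, Bcat1 made up 1.10%, 1.65% and 1.85% of the summed Bcat1 and Bcat2 level in the mutant libraries, against 12.1%, 15.1% and 20.5% in the wild-type libraries. These shares depend on the gene lengths used. With the longest transcript of each gene in place of the union of its exons, they averaged 0.98% in the mutant and 10.8% in the wild type. The summed level of both genes per kilobase was 618, 558 and 601 normalised reads in the mutant libraries, against 946, 952 and 990.4 in the wild-type libraries, and most of it came from Bcat2 in either genotype.

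Bckdha and Bckdhb encode the alpha and beta subunits of E1, the decarboxylase of the dehydrogenase complex. Bckdha, on chromosome 7 from 25629946 to 25658981, had 669, 603 and 504 normalised reads in the mutant libraries, against 713, 802 and 641 in the wild-type libraries. The groups overlapped, and the log2 change was -0.28 ± 0.16 (SE; 95% interval -0.64 to 0.07). Of its 1899 exon bases 1171 are also exon of B3gnt8, a glycosyltransferase gene on the other strand, which averaged 209 ± 8.12 normalised reads in the mutant and 94.1 ± 10.5 in the wild type (SD, n = 3 each). The sources used here do not state how reads of the shared stretch were assigned. Bckdhb, on chromosome 9 from 83925145 to 84124240, had 891, 703 and 743 normalised reads in the mutant libraries, against 770, 655 and 1048 in the wild-type libraries. The wild-type libraries alone spanned the whole mutant range, and the log2 change was -0.06 ± 0.19 (SE; 95% interval -0.48 to 0.35). The level of Bckdha per kilobase relative to that of Bckdhb was 0.73 ± 0.09 in the mutant and 0.88 ± 0.29 in the wild type (SD, n = 3 each), a difference smaller than the spread within the wild type.

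Dbt, on chromosome 3 from 116513070 to 116549981, encodes E2, the lipoyl-bearing transacylase that forms the core of the complex. It had 1187, 1584 and 1345 normalised reads in the mutant libraries, against 1670, 1467 and 1836 in the wild-type libraries. Mutant replicate 2 lay above wild-type replicate 2, and the log2 change was -0.28 ± 0.14 (SE; 95% interval -0.60 to 0.04). Dld, on chromosome 12 from 31331277 to 31351453, encodes E3, the flavoprotein that reoxidises the lipoyl arm and is shared with other dehydrogenase complexes. It had 5035, 5198 and 5248 normalised reads in the mutant libraries, against 6086, 6351 and 7138 in the wild-type libraries. Every mutant library was below every wild-type library, with a log2 change of -0.34 ± 0.10 (SE; 95% interval -0.55 to -0.12). Dld lay past the threshold with all 6 libraries, but not when any 1 library was left out, with the replicate number as a block or with equal library totals.

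The mean log2 level of the 4 subunit genes was 10.43, 10.42 and 10.32 in mutant replicates 1 to 3, against 10.59, 10.54 and 10.75 in wild-type replicates 1 to 3, a difference of -0.24. The mutant libraries lay below the wild-type libraries by a small step. Relative to this mean, Bcat1 was at -4.42, -3.97 and -3.61 in the mutant libraries, against -0.52, -0.15 and 0.13 in the wild-type libraries, a shift of -3.82. Bcat2 relative to the same mean was at 0.79, 0.65 and 0.85 in the mutant libraries, against 1.08, 1.08 and 0.83 in the wild-type libraries, where the ranges overlapped. None of these log2 levels was divided by gene length, so that only shifts between genotypes are read from them. Per kilobase of exon, Bcat1 lay below all 4 subunit genes in either genotype.

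Bckdk, on chromosome 7 from 127904082 to 127910221, encodes the kinase that phosphorylates and inhibits E1. It had 4322, 5025 and 4932 normalised reads in the mutant libraries, against 5273, 5387 and 5454 in the wild-type libraries. The groups did not overlap but came close, and the log2 change of -0.18 ± 0.10 (SE; 95% interval -0.40 to 0.04) was not past the threshold. The level of Bckdk per kilobase relative to Ppm1k, which encodes the phosphatase that reactivates the complex, was 7.94, 6.34 and 6.83 in the mutant libraries, against 8.37, 10.8 and 7.56 in the wild-type libraries, with overlap. Ivd, on chromosome 2 from 118861954 to 118882909, encodes isovaleryl-CoA dehydrogenase, which acts on the leucine product of the complex. It had 5378, 5528 and 4670 normalised reads in the mutant libraries, against 5740, 5321 and 5032 in the wild-type libraries. The groups overlapped, with a log2 change of -0.05 ± 0.11 (SE; 95% interval -0.28 to 0.19).

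**Figure D2:**
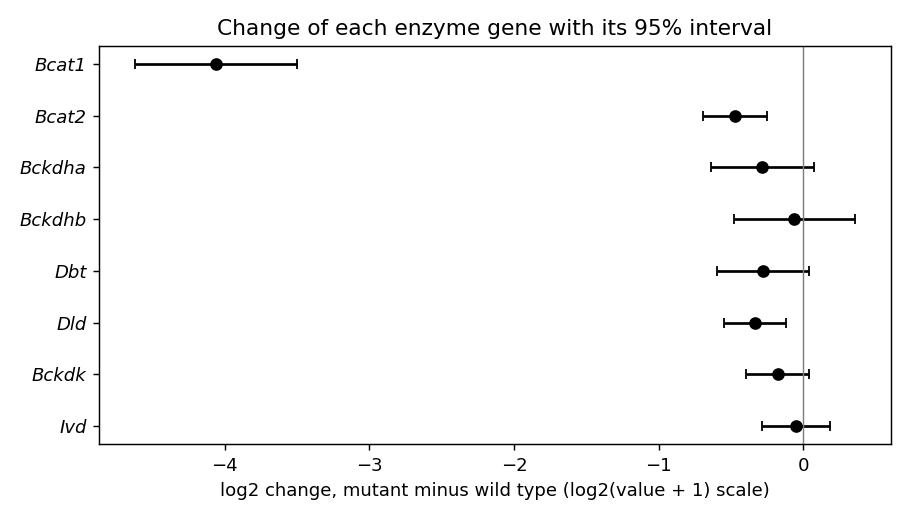
Log2 change of each enzyme gene (horizontal axis, mutant minus wild type on the log2(value + 1) scale) with its 95% interval from the limma fit; 1 row per gene and a line at 0. Bcat1 lies at -4.06 and the other 7 genes between -0.47 and -0.05, with intervals that exclude 0 for Bcat1, Bcat2 and Dld.

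For an order of levels within a genotype, genes were compared as normalised reads per kilobase of exon, over the union of each gene's exons. The order depends on that length. By the longest transcript instead, mean Ivd would stand above Bckdk in the mutant. In the wild type mean Bcat2 would stand above Ivd, and mean Bckdhb above Dbt. The place of Bckdha also depends on how reads of the stretch shared with B3gnt8 were assigned. In the mutant the order from high to low was Dld (1401 ± 30.3), Bckdk (1288 ± 103), Ivd (943 ± 83.2), Bcat2 (583 ± 31.6), Bckdhb (431 ± 54.9), Dbt (410 ± 59.7), Bckdha (312 ± 43.7) and Bcat1 (9.05 ± 2.17; SD, n = 3 each). In the wild type it was Dld (1772 ± 149), Bckdk (1454 ± 24.7), Ivd (974 ± 64.6), Bcat2 (809 ± 21.99), Dbt (495 ± 55.3), Bckdhb (457 ± 112), Bckdha (378 ± 42.4) and Bcat1 (154 ± 44.9; SD, n = 3 each). The libraries of neighbours in this order overlapped for Bckdhb and Dbt in the mutant, and for Dbt with Bckdhb and Bckdhb with Bckdha in the wild type. Bcat1 was thus the lowest of the 8 in either genotype. Its level per kilobase was above that of 9.07% of tested genes in the mutant and of 48.2% in the wild type. Dld per kilobase exceeded Dbt 3.46 ± 0.44 times in the mutant and 3.59 ± 0.32 times in the wild type (SD, n = 3 each), a difference within the spread of either group.

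**Figure D3:**
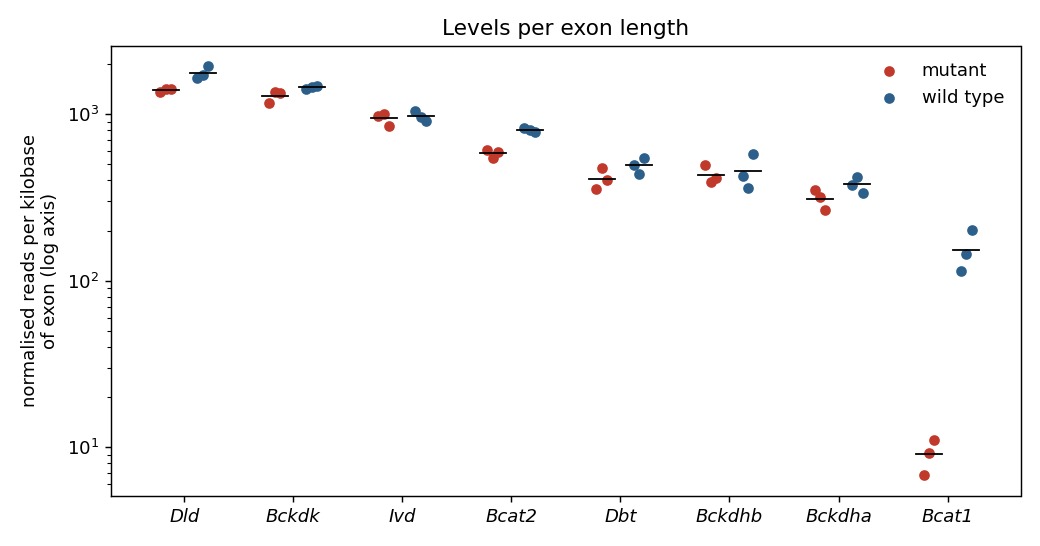
Normalised reads per kilobase of exon (log axis) of the 8 enzyme genes, ordered by their wild-type mean; for each gene the 3 mutant libraries are on the left (red), the 3 wild-type libraries on the right (blue) and short lines are means. Bcat1 is lowest in both genotypes, at a mean of 9.05 in the mutant and 154 in the wild type.

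The other genes of the pathway were taken from lists built by role, 43 genes in all. These lists, like the members, were chosen with earlier results of these data known. Of the 43 genes, 17 were lower in the mutant and 0 higher (limma adjusted p under 0.05), where 10.9% of all tested genes were lower and 7.94% higher. Given that choice, nothing is read from this difference or from the counts of single lists. The adjusted p-values of the listed genes come from the same contrast and are likewise given as a description. The 17 became 11 without wild-type replicate 3, the lowest count among the alternatives. The median log2 change of the 43 genes was -0.26, with 0.03 for all tested genes. Among 6 transporters of these amino acids 3 fell. Slc7a5, the large neutral amino acid exchanger, had 2452 ± 736 normalised reads in the mutant and 6138 ± 328 in the wild type (log2 change -1.36 ± 0.18, limma adjusted p = 0.000977). Its partner chain Slc3a2 changed by -0.69 ± 0.10 (limma adjusted p = 0.0013) and the facilitated carrier Slc43a1 by -0.91 ± 0.11 (limma adjusted p = 0.000701). The log2 changes of Slc7a8 (0.76 ± 0.54), Slc43a2 (0.26 ± 0.16) and the mitochondrial carrier Slc25a44 (-0.26 ± 0.13) did not pass.

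Dld also serves the pyruvate and 2-oxoglutarate dehydrogenase complexes and the glycine cleavage system. Of 9 genes of their other subunits 3 fell, beside the 10.9% of all tested genes that were lower. Gcsh, the lipoyl-bearing protein of glycine cleavage, changed by -0.87 ± 0.12 (limma adjusted p = 0.00124), the pyruvate dehydrogenase core Dlat by -0.56 ± 0.12 (0.0085) and its E1 subunit Pdha1 by -0.38 ± 0.11 (0.0325). The call of Pdha1 was lost with the replicate block, with equal library totals and in each leave-one-out fit but the one without mutant replicate 2 (adjusted p up to 0.103). Of 3 genes that supply the lipoyl group, Lipt2 fell to 222 ± 59.3 normalised reads in the mutant, against 454 ± 34.5 in the wild type (SD, n = 3 each; log2 change -1.07 ± 0.22, limma adjusted p = 0.00902). Lipt1 (-0.80 ± 0.25, limma adjusted p = 0.0502) just missed the threshold and passed with DESeq2, with a pseudocount of 0.5, with robust empirical Bayes and with a filter at a mean of 50. Lias changed by 0.08 ± 0.10. The phosphatase gene Ppm1k did not pass (0.15 ± 0.18, limma adjusted p = 0.604).

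Beyond Ivd in the leucine arm, 1 of 4 genes fell, a count too small to set apart from the 10.9% of all tested genes that were lower. It was Mccc2, the beta subunit of methylcrotonoyl-CoA carboxylase, with 897 ± 128 normalised reads in the mutant and 1449 ± 22.3 in the wild type (SD, n = 3 each; log2 change -0.70 ± 0.13, limma adjusted p = 0.00601). The alpha subunit Mccc1 (-0.19 ± 0.13) and the hydratase Auh (0.15 ± 0.10) did not pass. Whether the 2 carboxylase subunits differed in their change was not tested. In the valine and isoleucine arm 4 of 13 genes fell, beside the same 10.9% of all tested genes. Mut, methylmalonyl-CoA mutase, changed by -0.59 ± 0.14 (limma adjusted p = 0.0147), Pcca of propionyl-CoA carboxylase by -0.43 ± 0.11 (0.019) and the thiolase Acat1 by -0.38 ± 0.10 (0.0306). The fourth, the hydrolase Hibch (-0.47 ± 0.13, limma adjusted p = 0.0355), was named after its value was seen. The call of Pcca was lost without any 1 wild-type library (adjusted p up to 0.0598), that of Acat1 under 5 of the 17 alternatives and that of Hibch under 7. This count was 2 with the replicate block and on leaving out mutant replicate 2 or 3 or wild-type replicate 1 or 2, and 1 without wild-type replicate 3, with Mut called in each case.

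Of 7 genes for other enzymes that move amino groups to or from 2-oxoglutarate 5 fell, beside the 10.9% of all tested genes that were lower. Psat1 of serine synthesis had 3868 ± 276 normalised reads in the mutant and 7675 ± 1536 in the wild type (SD, n = 3 each; log2 change -0.97 ± 0.14, limma adjusted p = 0.00137). The mitochondrial aspartate aminotransferase Got2 changed by -0.66 ± 0.11 (limma adjusted p = 0.00362) and the mitochondrial alanine aminotransferase Gpt2 by -1.06 ± 0.23 (0.00994), a call that was lost without wild-type replicate 2 (0.051). The cytosolic Got1 (-0.75 ± 0.18, limma adjusted p = 0.0177) and the glutamate dehydrogenase Glud1 (-0.31 ± 0.10, 0.0468) also fell, and cytosolic Gpt did not pass (0.26 ± 0.16). The naming of these 3 followed their values. The call of Got1 was lost when either mutant replicate 2 or wild-type replicate 3 was left out (adjusted p up to 0.0628). The call of Glud1 was lost under 12 of the 17 alternatives, and the count of the list was 3 on leaving out mutant replicate 2 or wild-type replicate 2 or 3.

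A pair of cytosolic and mitochondrial forms allowed the comparison made for Bcat1 and Bcat2 in other aminotransferases. The log2 level of Got1 relative to Got2 was -2.43, -3.35 and -2.90 in the mutant libraries, against -2.92, -2.88 and -2.59 in the wild-type libraries, with overlap (exact permutation test, two-sided, p = 0.9). For Gpt relative to Gpt2 it was 1.59, 1.51 and 1.26 in the mutant libraries, against 0.41, 0.04 and -0.06 in the wild-type libraries. The Gpt groups did not overlap, and p = 0.1 in the exact permutation test is the smallest that 3 against 3 libraries allow (0.2 when adjusted over the 2 ratios). Against the wild type, the cytosolic form was thus relatively higher in the mutant for Gpt and relatively lower for Bcat. The log2 levels here were not divided by gene length, so that their size within a genotype is not read.

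**Figure D4:**
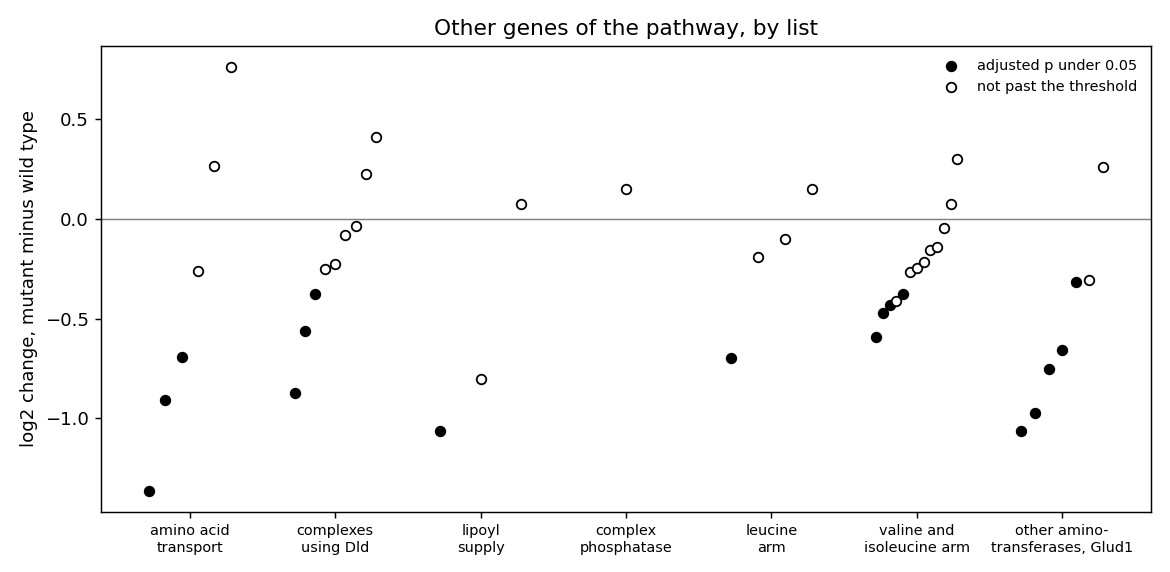
Log2 change (vertical axis, mutant minus wild type) of 43 other genes of the pathway in 7 lists; each point is a gene, filled where the limma adjusted p was under 0.05 and open where it was not, with a line at 0. All 17 filled points lie below 0, the lowest being Slc7a5 at -1.36.

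The genes whose pattern over the 6 libraries lay nearest to Bcat1, by the root mean square difference of centred log2 values among 10662 protein-coding genes with a mean of at least 50, were Tmem238 (0.39), Fkbp11 (0.55), Prr5 (0.58) and Pdia5 (0.58). The nearest of them, Tmem238, had 8.44, 25.4 and 20.96 normalised reads in the mutant libraries, against 181, 204 and 261 in the wild-type libraries. Nearest to Bcat2 were Zfp764 (0.03), Ddx49 (0.04), Carnmt1 (0.04) and Riox1 (0.04). Zfp764 had 912, 845 and 891 normalised reads in the mutant libraries, against 1206, 1258 and 1193 in the wild-type libraries. The 6 points behind each likeness fall into 2 genotypes, so that all these genes share the step between them.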

How the data were processed

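RNA-seq of 3 mutant and 3 wild-type libraries was analysed. Per the labels' protocols, libraries were made with the SMART-Seq v4 and Nextera XT kits, which record no strand. The authors used STAR 2.5.3, featureCounts and DESeq2 1.20.0 with mm10 and GRCm38, per the submitters' processing notes. The deposited table holds a signal per gene, the authors' read counts over 1 size factor per library. Divided by 1 value per library, 100.0% of 126810 entries came out whole (within 0.1 reads), which gave back 38591038 to 51306934 reads. Counting options, filters and annotation release: not given in the sources used here. Of 21135 genes 21100 received a symbol from GENCODE M21.

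Genotypes were compared with limma 3.58.1 (R 4.3.3; trend, two-sided) on log2(value + 1) over the 17815 genes whose mean reached 10, with Benjamini-Hochberg adjustment over all of them at 0.05. This scale understates changes of rare transcripts. Alternatives included edgeR 4.0.16, DESeq2 1.42.0 and voom on the recovered reads, and the methods were tested on simulated data. Named were the 8 members, Myc, the 3 smallest p of each list (all of lists up to 6 genes) and the 4 nearest patterns to Bcat1 and to Bcat2; some genes of these lists are not reported here. Members and lists were chosen with earlier results of these data known.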

Additional observations from a re-analysis of the deposited data

How the results depend on the processing

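Under all 17 alternatives Bcat1 and Bcat2 kept their direction and lay past the threshold, with log2 changes of -4.25 to -3.84 and -0.51 to -0.41. Without the globin-bearing wild-type replicate 2 they were -4.09 and -0.47. Dld lay past it under 9 of 17. Bckdha, Bckdhb, Dbt, Bckdk and Ivd passed under none, and Bckdhb (up to 0.13) and Ivd (up to 0.03) changed sign under 2 and 3 of them. Of all genes, 1905 to 2788 were called with 1 library left out (819 to 1176 higher and 1086 to 1780 lower), 1905 of them being without wild-type replicate 2, 3283 with edgeR and 4168 with DESeq2. Leaving out 1 library gave 1 to 4 calls in the valine and isoleucine list and 3 to 5 among the other aminotransferases. The lipoyl list had 2 calls with a pseudocount of 0.5, with a mean of at least 50, with robust empirical Bayes and with DESeq2. The cause was not tested. The Bcat1 share was 0.98% in the mutant and 10.8% in the wild type with the longest transcript, by construction, since other lengths were used. Libraries with the same replicate number did not deviate together (correlations of deviations -0.02, -0.07 and -0.01, beside -0.06 to 0.10 for different numbers). The labels do not say what a replicate number stands for, so that pairing is not settled. With the number as a replicate block 3066 genes and 2 of the 8 members were called, and the valine and isoleucine list had 2 calls.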
